A study of Homo sapiens with 2 samples.

Results

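The 39 genes described here encode enzymes and factors that copy DNA in S phase. They were taken by name, as a list of licensing, helicase, polymerase, clamp, nucleotide synthesis and chromatin assembly genes; the rule uses no measured value, but the list was drawn up with earlier results of these data known. All 39 were found among the 18417 genes that could be named on the arrays. The study asked how HT1080 cells, an established human fibrosarcoma line, change their transcripts when they rest on rLCC111, a recombinant trimer of the coiled-coil part of the laminin α1, β1 and γ1 chains. The control group was HT1080 cells in wells coated with BSA, the other group HT1080 cells in wells coated with rLCC111 at 1 µg per well. The line was kept in medium with serum, no other treatment is given, and RNA was taken at 24 h, with 1 GeneChip Human Gene 1.0 ST array per coating. Values are log2 expression levels made by the authors with RMA, a method that corrects background, normalizes arrays and summarises the probes of a sequence. A difference is the rLCC111 array minus the BSA array on the log2 scale, and a fold is the same on the linear scale.

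With 1 array per group there was no replicate check of any difference, no test was possible and no p-value is given. As a rough width of the measurement, the differences of 379 olfactory, taste and other sensory receptor genes had an SD of 0.18. Such genes should have little mRNA in this line. Their differences were lopsided, from -0.31 to 1.53, and rises past 1.2-fold (24 genes) outnumbered falls of that size (4 genes). The SD thus includes a long upper tail and is not a clean width of noise. Sequences were called dim below 6.62, the mean level under which 95% of these receptor genes lay. All 39 replication genes were above it on both arrays, the lowest at 8.16. The median level over all sequences was 7.04 on BSA and 7.12 on rLCC111. Of 6 mesenchymal markers, 5 were above the limit and S100A4 was below it at 6.60 and 6.49. Of 9 epithelial, blood and endothelial markers, 7 were below the limit on both arrays, EPCAM, CDH1, PTPRC, PECAM1 and CDH5 among them. The other two, KRT19 and CD79A, were at 7.30 and 6.74 on BSA and at 7.46 and 6.71 on rLCC111.

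Before a cell enters S phase, the origin recognition complex, CDC6 and CDT1 load the ring of MCM2 to MCM7 onto DNA, a step called licensing that geminin blocks once replication has begun. CDC45 and the GINS proteins then turn the ring into a working helicase, primase starts each strand, and polymerases held by the sliding clamp PCNA extend it. Most of these genes are transcribed in late G1 and S under E2F factors, so their mRNA is known to be abundant in cycling cultures and scarce in resting ones. In RNA from a whole well, a smaller share of cells in S phase and less of an mRNA in each cell cannot be told apart.

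The replication genes as a group were slightly lower on rLCC111, and none differed by much. Of 39 genes, 35 had a difference below 0, against 46.6% of all genes. Above 0 were 3 genes, RPA1, GINS3 and POLE, and LIG1 had exactly the same level on both arrays. The median difference was -0.16, a fold of 0.895, and single differences ran from -0.43 for CDC6 to 0.07 for POLE. Over all genes the median was 0.00, and over the 7629 genes whose mean level lay in the same range as these 39 it was -0.02, with 54.9% below 0.

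At the sizes of difference used here, 5 of the 39 genes were at least 1.2-fold lower, against 5.89% of all genes and 7.55% of the genes of similar level. They were CDC6, RPA2, MCM2, PRIM1 and RFC4. This count depended on the scaling: after each array was centred on its median it was 16, against 11.7% of all genes. No gene of the 39 was at least 1.2-fold higher, against 6.76% of all genes and 7.33% of those of similar level. None was 2-fold different in either direction, against 0.326% of all genes and 0.341% of those of similar level. Most of the genes lay on the same side of 0, with small differences. In 23 of 39 the difference was no larger than the SD of the sensory receptor genes, and the 16 larger ones were all on the lower side. That SD comes from dimmer genes, 95% of them below 6.62, while the 39 were at 8.16 or above. It is thus no cut-off for noise at the level of the 39. Of all genes, 12.1% lay at or below -0.18 and 88.0% at or below 0.18. For the genes of similar level these shares were 16.1% and 87.4%. The SD among the 39 differences was 0.11, against 0.21 among the genes of similar level. Across the 39 genes the difference was nearly unrelated to the level (Pearson r of -0.17 and Spearman rho of -0.23 over genes of the same 2 arrays, which are not independent).

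The direction partly depended on how the arrays were scaled, since the deposited array medians differ. After median centring all 39 genes were below 0, but so were 73.6% of all genes. After quantile normalization 36 were below 0, against 65.8% of all genes, and after removal of a lowess trend on level 34 were, against 55.8%. The median of all genes moved by 0.08 or less on the log2 scale under these scalings, and that of the 39 genes stayed below it in each, between -0.24 and -0.12.

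**Figure D1:**
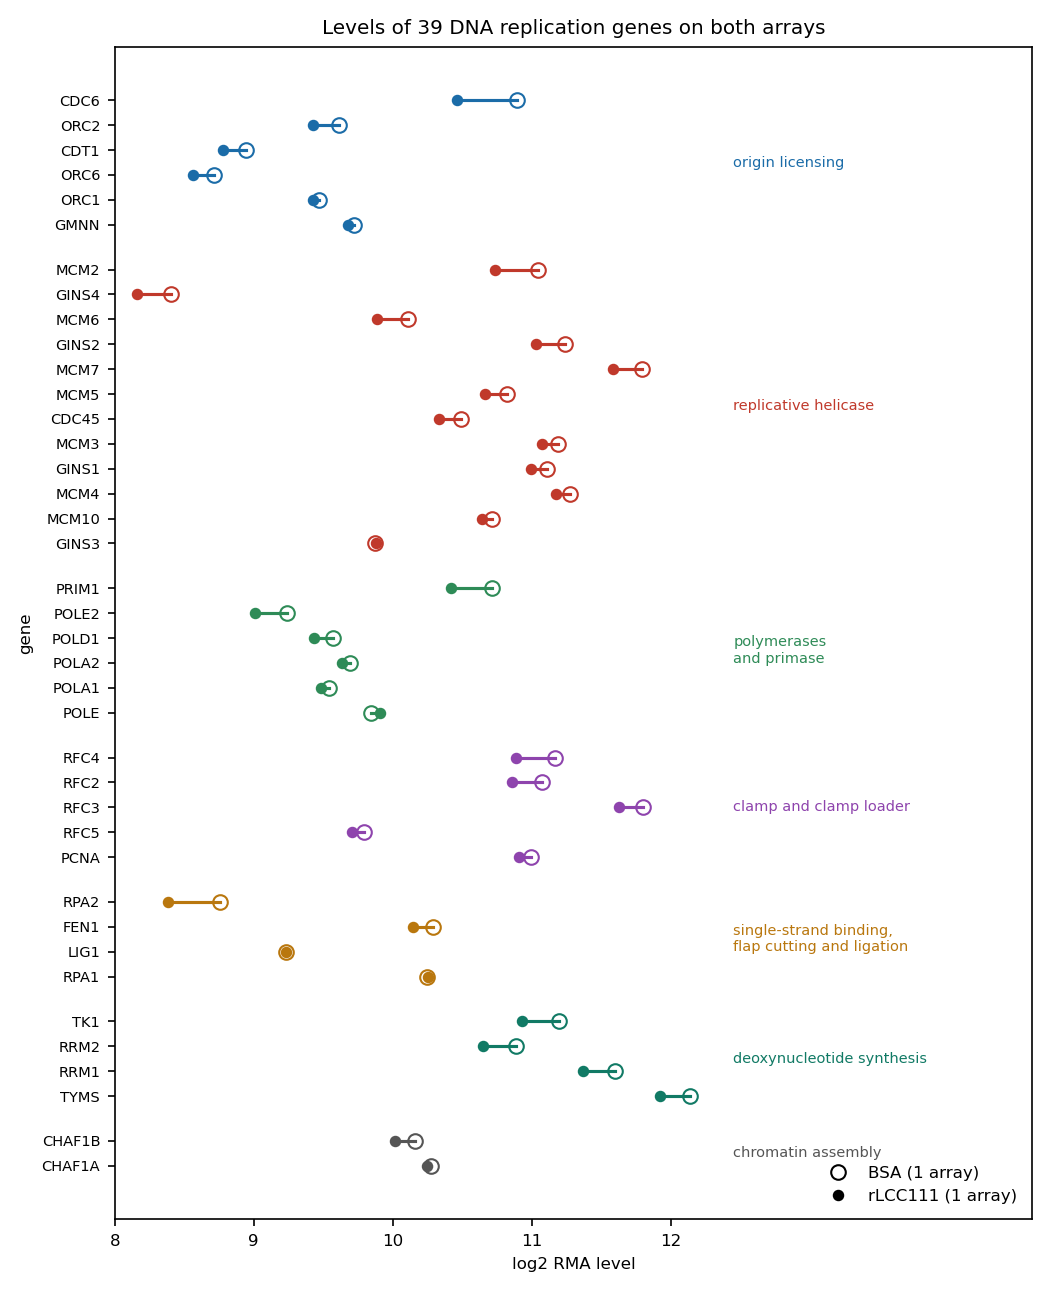
Log2 RMA level (horizontal axis) of each of the 39 genes (vertical axis), grouped by role, on BSA (open circles) and rLCC111 (filled circles), 1 array each. The filled circle lies to the left of the open one in 35 genes, farthest in CDC6, and to the right in RPA1, GINS3 and POLE.

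The promoters of these genes are shown first, because shared E2F control is the best known feature that joins them and was not used to choose them. RefSeq windows of GRCh38.p14, from 250 bases before to 50 bases after an annotated start, were found for 35 of the 39 genes, with 44 windows in all, since some genes have several starts. RPA2, MCM4, MCM5 and GINS4 were not matched. Each window was searched on both strands for the E2F words TTTGGCGC, TTTCCCGC, TTTCGCGC and TTTGCCGC, for CCAAT, the word bound by NF-Y, and for TTTGAA, the CHR word of genes expressed in G2 and mitosis. An E2F word was present in 18 of 44 windows, or 40.9%, against 3.31% of all 35116 windows and 4.77% of the windows of genes above the level limit. CCAAT was present in 61.4%, against 34.6% of all windows. TTTGAA was present in 1 window, that of RRM1, or 2.27%, against 15.2% of all windows.

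Of the other lists, G1 to S regulators lay nearest for E2F words, with one in 35.3% of their 17 windows. The share was 30.0% in the 40 windows of other replication factors, about that of histone genes below. TTTGAA was present in 11.8% of the windows of G1 to S regulators and 7.50% of those of other replication factors. In the 34 windows of mitosis genes, E2F words had a smaller share and TTTGAA a larger one, with an E2F word in 11.8%, CCAAT in 82.4% and TTTGAA in 67.6%. In the 53 windows of replication-dependent histone genes the shares were 30.2%, 84.9% and 34.0%. The 24 E2F matches in windows of the 39 genes had a median position of 46 bases before the start. Overlapping words on opposite strands count as separate matches. These are matches of letters, not measured binding.

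**Figure D2:**
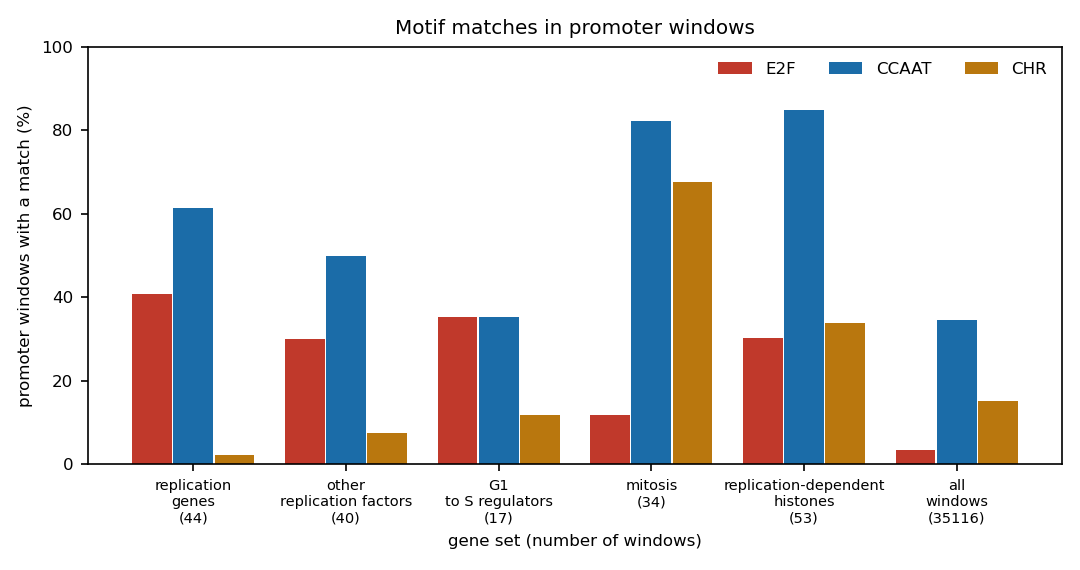
Share of promoter windows (vertical axis, percent) that hold an E2F word, CCAAT or the CHR word TTTGAA, by gene set (horizontal axis, number of windows in brackets). E2F words are in 40.9% of the windows of the replication genes and 35.3% for G1 to S regulators. For histone genes the share is 30.2% and for other replication factors 30.0%. CHR words are in 2.27%, 11.8%, 34.0% and 7.50% of these sets in the same order, and in 67.6% for mitosis genes.

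The 9 windows printed here set genes with the largest differences beside the 4 that were not lower. CDC6, MCM2, PRIM1 and RFC4 had the lowest differences among the genes with a window, MCM6 held the most E2F matches, LIG1 had a difference of exactly 0, and RPA1, GINS3 and POLE had differences above 0. Each runs 5′ to 3′ on the strand of the gene, from 160 bases before the start to 20 bases after it, and capitals mark E2F words and CCAAT on either strand. The build is GRCh38.p14. CDC6 lies at chr17:40287719-40287898 and MCM2 at chr3:127598251-127598430 on the plus strand, as do RPA1 at chr17:1829845-1830024 and GINS3 at chr16:58392311-58392490. PRIM1 lies at chr12:56752304-56752483, RFC4 at chr3:186806463-186806642, MCM6 at chr2:135876424-135876603, LIG1 at chr19:48170325-48170504 and POLE at chr12:132687323-132687502, all on the minus strand.
CDC6: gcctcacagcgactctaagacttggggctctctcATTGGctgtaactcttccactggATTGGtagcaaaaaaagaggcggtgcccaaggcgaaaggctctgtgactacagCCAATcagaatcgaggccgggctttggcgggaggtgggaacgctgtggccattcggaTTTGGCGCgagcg
MCM2: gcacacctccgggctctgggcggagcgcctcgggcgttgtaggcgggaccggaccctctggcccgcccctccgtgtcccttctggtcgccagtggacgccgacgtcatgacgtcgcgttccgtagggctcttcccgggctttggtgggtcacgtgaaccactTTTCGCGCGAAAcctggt
PRIM1: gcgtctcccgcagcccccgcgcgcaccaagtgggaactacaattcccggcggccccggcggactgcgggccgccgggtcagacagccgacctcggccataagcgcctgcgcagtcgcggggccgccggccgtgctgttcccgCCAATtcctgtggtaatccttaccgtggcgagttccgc
RFC4: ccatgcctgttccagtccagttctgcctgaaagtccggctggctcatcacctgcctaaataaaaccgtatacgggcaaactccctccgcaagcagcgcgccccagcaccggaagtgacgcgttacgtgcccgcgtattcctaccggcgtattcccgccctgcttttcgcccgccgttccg
MCM6: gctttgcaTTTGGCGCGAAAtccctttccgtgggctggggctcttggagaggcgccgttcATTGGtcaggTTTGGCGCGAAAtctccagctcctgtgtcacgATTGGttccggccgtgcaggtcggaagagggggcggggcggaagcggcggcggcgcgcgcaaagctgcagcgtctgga
LIG1: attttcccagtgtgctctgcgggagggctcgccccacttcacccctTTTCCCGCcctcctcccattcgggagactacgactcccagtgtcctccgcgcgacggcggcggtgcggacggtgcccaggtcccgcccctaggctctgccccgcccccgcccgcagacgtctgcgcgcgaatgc
RPA1: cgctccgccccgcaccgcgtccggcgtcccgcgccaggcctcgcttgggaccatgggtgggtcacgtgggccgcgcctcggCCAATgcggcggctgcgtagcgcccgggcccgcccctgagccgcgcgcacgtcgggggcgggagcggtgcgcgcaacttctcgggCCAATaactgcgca
GINS3: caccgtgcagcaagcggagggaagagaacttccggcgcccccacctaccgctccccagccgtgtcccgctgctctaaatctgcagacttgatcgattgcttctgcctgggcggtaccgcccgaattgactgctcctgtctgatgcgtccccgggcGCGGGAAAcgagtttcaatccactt
POLE: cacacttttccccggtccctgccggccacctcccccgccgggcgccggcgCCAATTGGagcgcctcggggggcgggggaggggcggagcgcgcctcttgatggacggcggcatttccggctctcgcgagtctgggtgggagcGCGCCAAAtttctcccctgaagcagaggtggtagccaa

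CDC6, the lowest gene of the list, holds CCAAT on one strand or the other at 3 places and an E2F word that begins 8 bases into the gene. MCM2 has an E2F palindrome from base 3 of the gene and no CCAAT in the printed stretch. PRIM1 has CCAAT 18 bases before the start and no E2F word, and RFC4 has neither. MCM6 has E2F words at positions -152 and -90 counted from the start, each overlapped by another on the opposite strand. POLE, the highest gene, has an E2F word 18 bases before its start, and GINS3 has one from 5 bases before it. LIG1 has one at position -114, while RPA1 has CCAAT at -79 and at 7 and no E2F word. Genes with and without an E2F word thus stood at both ends of the list. The 18 genes with such a word had a median difference of -0.14, from -0.43 to 0.07, and the 17 without one had -0.15, from -0.30 to 0.01. The medians were -0.13 for the 22 genes with CCAAT and -0.17 for the 13 without.

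Origin licensing genes were lower in 6 of 6, with a median of -0.16. CDC6, the ATPase that loads the helicase with CDT1, had a level of 10.89 with BSA and 10.46 with rLCC111, a fold of 0.744. It had the largest difference of the 39 genes, and 1.59% of all genes had one as low or lower. CDT1 itself was at 8.95 and 8.78, a fold of 0.889. GMNN, which encodes its inhibitor geminin, was at 9.72 and 9.68, a fold of 0.972. Of the origin recognition subunits on the list, ORC2 had a fold of 0.879, ORC6 0.903 and ORC1 0.972. ORC1 had levels of 9.47 and 9.43. In this group CDC6 was past 1.2-fold, while geminin and ORC1 had nearly the same level on both arrays.

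Helicase genes were lower in 11 of 12, with a median of -0.16. MCM2 had a level of 11.05 with BSA and 10.73 with rLCC111, a fold of 0.806, and was the lowest of the ring. MCM6 was at 10.11 and 9.89, a fold of 0.855. MCM7 had a fold of 0.864, MCM5 0.894, MCM3 0.922 and MCM4 0.931. All 6 ring subunits, which act as a hexamer, were on the same side, with differences between -0.31 and -0.10. Of the GINS subunits, GINS4 had a level of 8.40 with BSA and 8.16 with rLCC111, a fold of 0.844, GINS2 had a fold of 0.863 and GINS1 0.923. GINS3, at 9.87 and 9.88, was the exception with a fold of 1.01. CDC45, which joins the ring with GINS, had a fold of 0.895, and MCM10, which helps to activate it, 0.950.

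MCM7 carries the microRNA genes MIR106B, MIR93 and MIR25 inside it, as the RefSeq table shows. Their sequences on the array, which do not measure the mature microRNA, had differences of -0.06, 0.08 and 0.05, beside -0.21 for MCM7. MIR106B and MIR93 were near the limit of dim sequences, with levels between 6.60 and 6.79.

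Polymerase and primase genes were lower in 5 of 6, with a median of -0.10, and ran from PRIM1 to POLE. PRIM1, the catalytic subunit of primase, which makes the RNA primer, had a level of 10.72 with BSA and 10.42 with rLCC111, a fold of 0.815. POLE2, a subunit of the leading strand polymerase, was at 9.24 and 9.01, a fold of 0.854. POLE, its catalytic subunit, was at 9.84 and 9.91, a fold of 1.05, the highest of the 39. POLD1, the catalytic subunit of the lagging strand polymerase, had a fold of 0.909. POLA2 and POLA1, of the polymerase that extends the primer, had folds of 0.956 and 0.962.

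Clamp and clamp loader genes were lower in 5 of 5, with a median of -0.17. RFC4, a subunit of the loader that opens the clamp, had a level of 11.17 with BSA and 10.88 with rLCC111, a fold of 0.819. RFC2 had a fold of 0.862, RFC3 0.890 and RFC5 0.942. PCNA, the clamp and a common marker of proliferating cells, was at 10.99 and 10.91, a fold of 0.943. The loader genes RFC4, RFC2 and RFC3 thus lay lower than the clamp gene itself, though no difference between genes could be tested.

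The genes of single-strand binding, flap cutting and ligation were split. RPA2, the middle subunit of replication protein A, which coats single-stranded DNA, had a level of 8.75 with BSA and 8.38 with rLCC111, a fold of 0.773. RPA1, the large subunit, was at 10.24 and 10.25, a fold of 1.01. FEN1, which cuts the flap of an Okazaki fragment, had a fold of 0.901. LIG1, the ligase that joins the fragments, was at 9.23 on both arrays. Its deposited values are identical, as they are for 1325 of the 18417 genes and for 7.39% of all sequences on these arrays. This was rarer among brighter genes: 108 of the 7629 genes of similar level, and 380 of the 12700 whose brighter array was above the limit.

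Genes of deoxynucleotide synthesis had a median of -0.23, with 4 of 4 between -0.26 and -0.21. This was the lowest median of the 7 role groups on the deposited values, but after quantile normalization it and that of origin licensing were both -0.21. TK1, the thymidine kinase of S phase, had a level of 11.19 with BSA and 10.93 with rLCC111, a fold of 0.834, just short of 1.2-fold. RRM2, the S-phase subunit of ribonucleotide reductase, which turns ribonucleotides into deoxyribonucleotides, was at 10.89 and 10.65, a fold of 0.847. RRM1, its large subunit, was at 11.60 and 11.37, a fold of 0.853. TYMS, which makes thymidylate, was at 12.14 and 11.93, a fold of 0.863. The chromatin assembly genes CHAF1B and CHAF1A, whose products place histones on new DNA, had folds of 0.906 and 0.979, from levels of 10.16 and 10.28 on BSA to 10.02 and 10.24 on rLCC111.

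**Figure D3:**
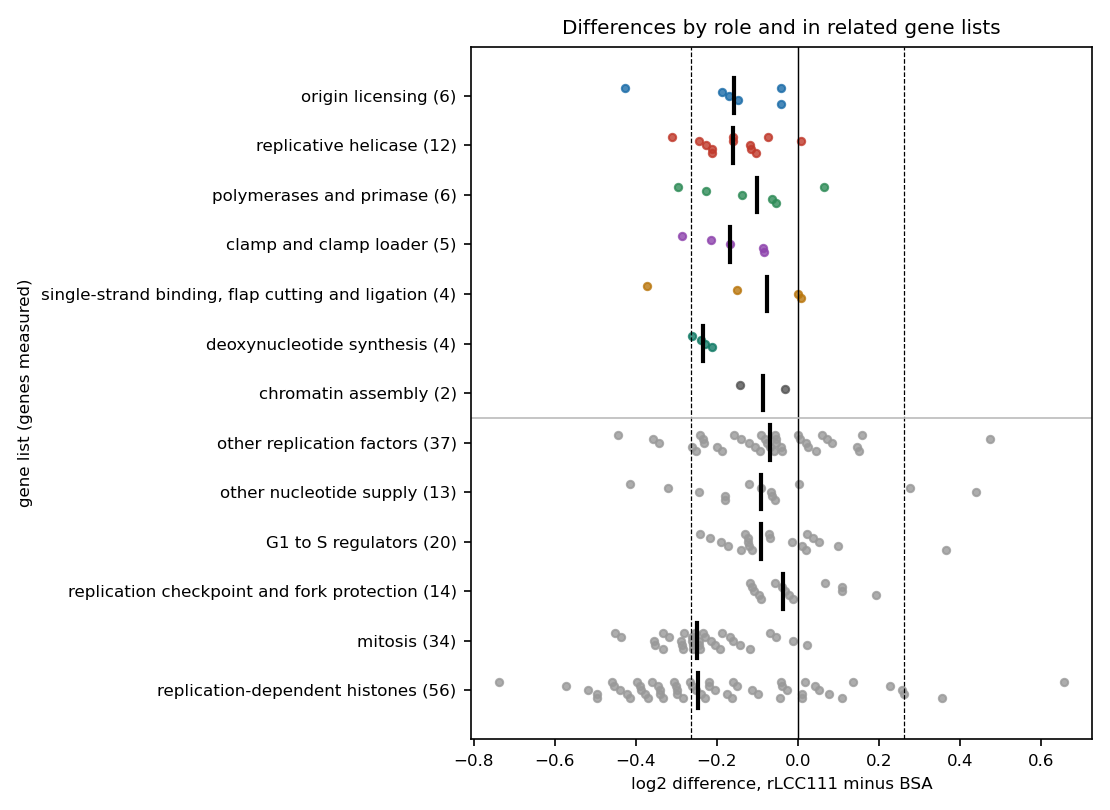
Log2 difference, rLCC111 minus BSA (horizontal axis), of each gene (points) in the 7 role groups of the 39 genes (coloured) and in 6 related lists (grey), with the number of genes measured in brackets. Black bars are medians and dashed lines mark 1.2-fold; deoxynucleotide synthesis has a median of -0.23 (on these values the lowest of the role groups, level with origin licensing after quantile normalization), and mitosis and histone genes lie at -0.25.

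Replication proteins work as complexes, so the 39 genes were also set beside the other subunits of their complexes. This grouping was chosen after the values were seen. In the MCM2 to MCM7 ring, the origin recognition complex, replication factor C, polymerase alpha with primase and ribonucleotide reductase, every measured subunit was lower. ORC4, ORC3 and ORC5 had differences of -0.23, -0.19 and -0.08, which put all 6 ORC genes below 0. PRIM2, the other primase subunit, had a level of 10.05 with BSA and 9.70 with rLCC111, a difference of -0.34 beside -0.30 for PRIM1, while the 2 polymerase alpha subunits had -0.06 each. The 3 ribonucleotide reductase genes RRM1, RRM2 and RRM2B all lay between -0.24 and -0.23.

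Polymerase delta, polymerase epsilon and replication protein A held subunits on both sides of 0. POLD4, the smallest subunit of polymerase delta, had a level of 9.05 with BSA and 9.52 with rLCC111, a difference of 0.47, while POLD2 and POLD3 had 0.05 and 0.02 and POLD1 -0.14. In polymerase epsilon, POLE3 had -0.23, close to POLE2, and POLE4 0.15, above POLE. RPA3 had -0.07, between RPA2 and RPA1.

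**Figure D4:**
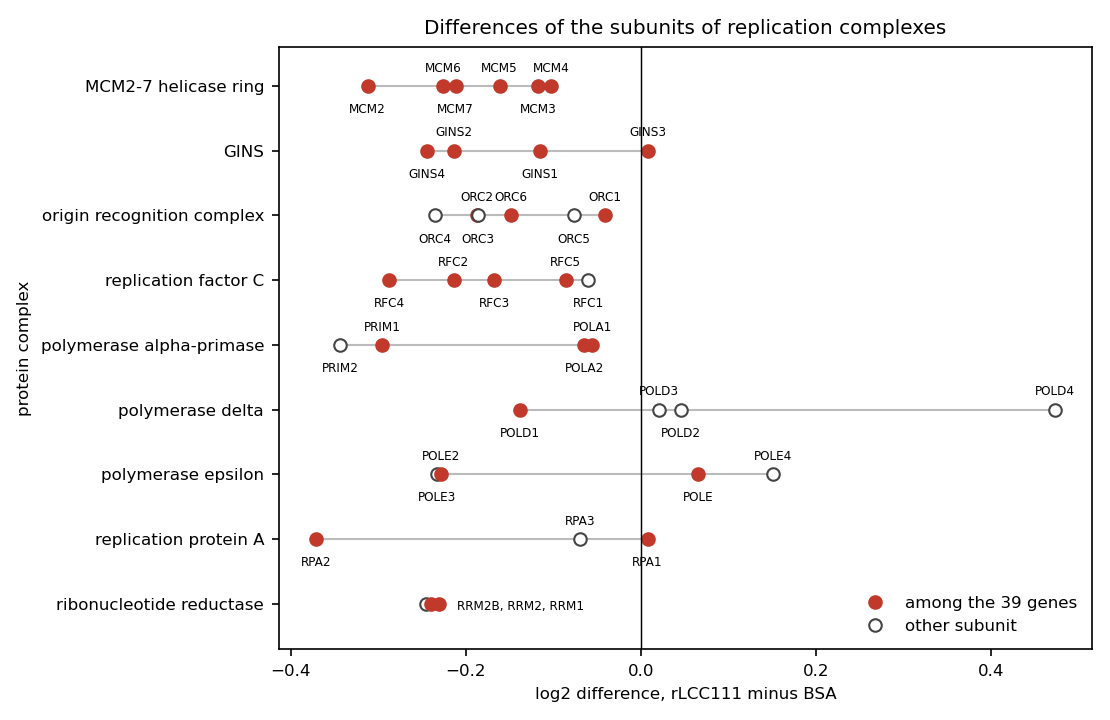
Log2 difference, rLCC111 minus BSA (horizontal axis), of the subunits (points) of 9 replication complexes (vertical axis); filled points belong to the 39 genes, open points are other subunits, and grey lines join the lowest and highest subunit. The 3 ribonucleotide reductase genes nearly coincide, and polymerase delta spans 0.61, with POLD4 farthest to the right.

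Genes of the same processes outside the list had medians nearer to 0. Of 37 other replication factors, 25 had a difference below 0 and the median was -0.07; 3 were at least 1.2-fold lower and 1 at least 1.2-fold higher. TIPIN, a partner of TIMELESS at the fork, had a level of 10.34 with BSA and 9.90 with rLCC111, a fold of 0.735, and the histone chaperone gene ASF1A had a fold of 0.781. POLD4, with a fold of 1.39, was the one higher. Of 13 measured genes of other nucleotide supply, 10 were below 0 with a median of -0.09. SAMHD1, which breaks down deoxynucleotides, had a fold of 0.750, DTYMK, the thymidylate kinase, 0.801 and SLC29A1, a nucleoside transporter, 1.36.

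Of 20 regulators of the G1 to S transition, 13 were below 0 with a median of -0.09. CCNE1, which encodes cyclin E1, had a level of 8.72 with BSA and 9.08 with rLCC111, a fold of 1.29, and was the only one of the 20 past 1.2-fold. The phosphatase gene CDC25A and the repressor gene E2F4 had folds of 0.846 and 0.860. Of 14 measured genes of the replication checkpoint and fork protection, 10 were below 0 with a median of -0.04 and none passed 1.2-fold. ATR, the kinase that answers stalled forks, had a fold of 1.14, and its target kinase CHEK1 and the helicase BLM had 0.921 and 0.924.

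Mitosis genes and replication-dependent histone genes had lower medians than the 39 genes. Of 34 mitosis genes, 33 were below 0 and 11 at least 1.2-fold lower, with a median of -0.25, a fold of 0.842. The kinetochore motor gene CENPE had a fold of 0.731, the kinase gene AURKA 0.739 and SPC24 0.782. Of 56 histone genes, 43 were below 0 and 26 at least 1.2-fold lower, with a median of -0.25. Their differences ran from -0.74 for H2AC13 to 0.66 for a gene that was dim on both arrays, at 5.62 and 6.28. For the 45 histone genes whose brighter array was above the limit the median was -0.28. H2AC25 and H3C8 had folds of 0.673 and 0.698. Histone genes are near-identical copies of each other, so a sequence can pick up several of them. Whether the 39 genes differ from either list could not be tested on 1 array per group.

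**Figure D5:**
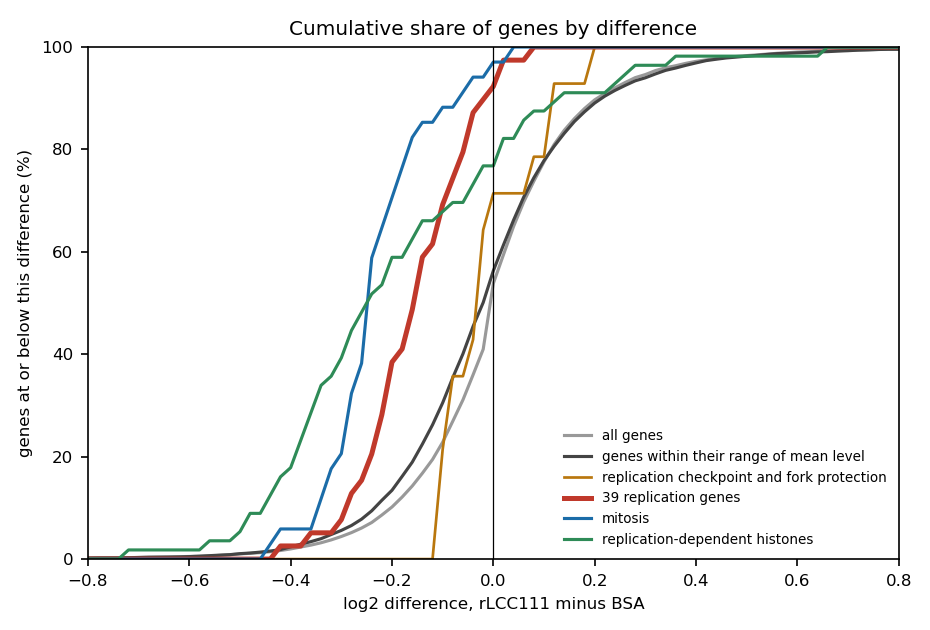
Percent of genes (vertical axis) with a log2 difference, rLCC111 minus BSA, at or below the value on the horizontal axis, for the 39 replication genes, 3 related lists, all genes and the genes of similar mean level. The curve of the 39 genes lies to the left of both background curves around 0 and that of mitosis genes farther left, while the checkpoint curve crosses the background.

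Head-to-head neighbours were searched for among the promoter windows only. RPA2, MCM4, MCM5 and GINS4 have none and were not searched, and a neighbour without a window would be missed. Of the 35 genes searched, 9 have a neighbour that starts within 1000 bases on the opposite strand and runs away from them. The 9 neighbours had a median difference of -0.03, from -0.08 to 0.12, and 5 were below 0, against 46.6% of all genes. AP4M1, which starts 40 bases from MCM7, had a level of 8.53 with BSA and 8.65 with rLCC111, a difference of 0.12 beside -0.21 for MCM7. TPRA1, which starts 180 bases from MCM2, had -0.05 beside -0.31. AFMID had -0.03 beside -0.26 for TK1, TMEM258 0.09 beside -0.15 for FEN1, CDS2 0.10 beside -0.08 for PCNA and VPS35 -0.04 beside -0.15 for ORC6. PRPF38A had -0.08 beside -0.04 for ORC1, SMYD4 0.06 beside 0.01 for RPA1 and PXMP2 -0.06 beside 0.07 for POLE. In these pairs the replication gene was the lower of both in 7 of 9. For these 9 the share of all genes as low or lower ran from 4.02% for MCM2 to 70.9% for POLE. Other genes set beside them would thus also mostly be higher, so the count does not set the neighbours apart.

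Every one of the 39 genes was measured by 1 sequence that carries its symbol alone, so no gene rested on a choice between sequences. Among them 8, PCNA, RRM2 and TYMS included, have pseudogenes named after them in RefSeq, whose transcripts could share probes. These 8 had a median difference of -0.16 and the other 31 of -0.16, so the values with and without them were close.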

How the data were processed

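Expression was measured in 2 samples of HT1080 cells, 1 array per coating. Per the labels and methods, the authors summarised the scans with RMA (named, with Affymetrix Expression Console, in the submitters' processing notes), and they deposited log2 expression levels of 33297 sequences. Versions, settings and genome build are not given in the sources used here. With 1 array per coating, limma, named in the methods, could not be run: it needs replicates. The levels were used without further scaling. Symbols were updated through gene identifiers to RefSeq (GRCh38.p14): 19460 sequences carry 1 symbol, 1754 several and 12083 none. A gene was given by its one-symbol sequence with the highest mean level. The 39 genes and the lists were chosen with earlier results of these data known. Named were all 39 genes, the 3 largest differences above the level limit in each other list, and head-to-head neighbours; the complexes, other subunits, microRNA genes, markers given by level and printed promoters were chosen after their values were seen. The number of arrays limits the precision. Alternatives were median centring, quantile normalization, lowess (span 0.2, 3 iterations), level filters and other choices of sequence. Counting and scaling were tested on simulated data. Calculations used Python 3.11.15, numpy 2.4.6, pandas 2.3.3, scipy 1.17.1, statsmodels 0.14.6 and matplotlib 3.10.9.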

Additional observations from a re-analysis of the deposited data

How the results depend on the processing

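Median centring raised the number of the 39 genes at least 1.2-fold lower from 5 to 16, as it lowers every difference by 0.08, and raised the share of all genes past that size from 5.89% to 11.7% on the lower side while the higher side went from 6.76% to 3.99%. Quantile normalization gave 7 such genes, against 8.55% of all genes, and lowess 4, against 5.92%. After lowess RFC4 had a fold of 0.846 and PRIM1 0.838. The median of the 39 genes lay between -0.24 and -0.12, that of mitosis genes between -0.33 and -0.21 and that of histone genes between -0.33 and -0.22 over all settings. No median of a role group or other list moved by 0.1 or more. The level filters and the other choices of sequence left the values of the 39 genes as they were, since all are above the limit with 1 sequence each. No paired analysis was possible because each coating has 1 array, and for the same reason no array could be left out.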
